A study of Mus musculus with 20 samples.

Results

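The genes described here are the classical and accessory genes of MHC class II antigen presentation and their transactivator. The members were chosen by symbol (H2-Aa, H2-Ab1, H2-Eb1, H2-DMa, H2-DMb1, Cd74 and Ciita), and all 7 were found among the 39017 gene identifiers of the count table. They were read library by library in microglia and astrocytes, after sham operation and after fluid percussion injury, and set beside markers of macrophages such as Mrc1.

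The study asked how both glial cell types respond to traumatic brain injury. Adult male C57BL/6J mice, 3 to 4 months old and not genetically modified, received a lateral fluid percussion injury (FPI, a brief fluid pulse onto the exposed dura) or a sham operation with the same craniectomy, anesthesia and connection to the device but no pulse. On day 7 the left forebrain, on the side of the injury, was dissociated after perfusion, and microglia (CD11b+ with intermediate CD45) and astrocytes (ACSA-2+) were sorted. Each of the 20 libraries of total RNA came from 1 animal without pooling, with 5 libraries each of sham microglia, FPI microglia, sham astrocytes and FPI astrocytes. Other myeloid cells also carry CD11b and CD45, and the gate on intermediate CD45 would leave out those with high CD45. Total counts per library ranged from 5623349 to 13110857, with medians of 8188128 in sham microglia, 8054415 in FPI microglia, 9300923 in sham astrocytes and 7878739 in FPI astrocytes.

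The library names bear on the results. Among the microglia, libraries 1 to 3 of each condition had names ending in M, and libraries 4 and 5 of each condition had names ending in J-A, so that both name series held sham and FPI animals (6 libraries against 4). What the suffixes stand for was not given in the sources used here. FPI astrocyte library 5 had a name with the suffix M and the same animal number as FPI astrocyte library 2, so results in astrocytes are also given without it. By the animal numbers in these names, 3 animals gave both a microglia and an astrocyte library.

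MHC class II molecules are pairs of an alpha and a beta chain that display peptides from engulfed material to CD4+ T cells. Cd74, the invariant chain, fills the groove of new class II molecules and is then degraded by lysosomal proteases, after which the H2-DM heterodimer helps exchange its last fragment for peptide. Ciita is a coactivator that does not bind DNA itself and is recruited by factors sitting on the class II promoters, and its own transcription is induced by interferon gamma in many cell types. In the brain, border macrophages of the meninges and perivascular spaces are known for higher class II expression than resting parenchymal microglia, and most C57BL/6 strains make no E alpha chain, so that H2-Eb1 is transcribed without a partner at the surface.

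On the GRCm38 annotation, 5 of the members lie in the MHC on chromosome 17. H2-Aa (ENSMUSG00000036594), the alpha chain of the A molecule, spans chr17:34282744-34287823 on the minus strand. H2-Ab1 (ENSMUSG00000073421), its beta chain, spans chr17:34257689-34269419. H2-Eb1 (ENSMUSG00000060586), the beta chain of the E molecule, spans chr17:34305867-34316674 and overlaps the antisense gene Gm20513. The peptide editors H2-DMa (ENSMUSG00000037649, chr17:34119541-34139101) and H2-DMb1 (ENSMUSG00000079547, chr17:34153072-34160230) lie upstream. H2-DMa overlaps Brd2 on the other strand, and H2-DMb1 has a close paralog, H2-DMb2, beside it. Ciita (ENSMUSG00000022504, chr16:10480059-10528418) overlaps Dexi on the other strand, and Cd74 (ENSMUSG00000024610) lies outside the MHC and holds the microRNA gene Mir5107. The strand setting of the counting was not given in the sources used here, so counts of members with an overlapping, antisense or near-identical gene are uncertain to that extent.

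The promoters are shown because class II genes are known for a shared module, in which the X box is bound by RFX and CREB family factors and the Y box by NF-Y. RefSeq promoter windows of GRCm38.p6, from 250 bases before to 50 bases after a start site, were present for 4 of the 7 members (H2-Aa, H2-Eb1, H2-DMa and H2-DMb1) and for 4 other class II genes (H2-Eb2, H2-DMb2, H2-Oa and H2-Ob). The stretches printed here run from 60 bases before to 20 bases after the Y box core, 5′ to 3′ on the strand of the gene, with letters matching a searched motif in capitals. They are those of H2-Aa (chr17:34287847-34287932, minus strand, just upstream of the gene), H2-Eb1 (chr17:34305747-34305832, plus strand, upstream of the gene and within the span of Gm20513), H2-DMb2 (chr17:34145098-34145183, plus strand, upstream of the RefSeq start and in an intron of a longer transcript) and H2-Ob (chr17:34238787-34238872, plus strand, upstream of the gene).
H2-Aa: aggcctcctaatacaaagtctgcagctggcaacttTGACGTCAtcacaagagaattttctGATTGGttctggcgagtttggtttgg
H2-Eb1: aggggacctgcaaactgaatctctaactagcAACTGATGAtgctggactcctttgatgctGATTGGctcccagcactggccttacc
H2-DMb2: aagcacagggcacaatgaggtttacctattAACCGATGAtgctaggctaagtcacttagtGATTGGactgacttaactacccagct
H2-Ob: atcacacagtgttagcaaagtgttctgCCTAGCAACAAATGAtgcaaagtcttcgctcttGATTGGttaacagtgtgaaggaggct

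Motifs were searched on both strands. The Y box core GATTGG was found in all 8 genes with a window, and in 16.1% of all 32851 windows. On the strand of the gene it began at -49 from the RefSeq start site in H2-Aa, -60 in H2-Eb1, -62 in H2-DMb1, -58 in H2-Ob, -44 in H2-Oa, -91 in H2-DMb2, -101 in H2-Eb2 and -199 in H2-DMa, and H2-Eb1 had another match at -35 on the other strand. The match of H2-DMb1 lies inside the first exon of the GENCODE M21 model and that of H2-DMa inside the GENCODE span of its gene, so their place before a start site holds for the RefSeq model only. The X1 box core CCTAGNNAC (3.91% of windows) matched in H2-DMb1 and H2-Ob. TGACG, a core shared by the X2 box and the cyclic AMP response element (20.8% of windows), matched in H2-Aa, once on each strand of a palindrome. AACNNATGA, which covers the end of the X1 core and the start of the X2 box and was added after the sequences were read, was in 2.85% of windows. It stood 10 to 30 bases before a Y box core in 9 of the 32851 windows (0.0274%), and 4 of these 9 belonged to H2-Eb1, H2-DMb1, H2-DMb2 and H2-Ob. Of the interferon motifs, no ISRE-like match was found in these 8 genes (3.44% of all windows) and 1 match to the GAS letters TTCNNNGAA (8.30% of all windows), in H2-DMb2, counts too small to set the genes apart from all windows.

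**Figure D1:**
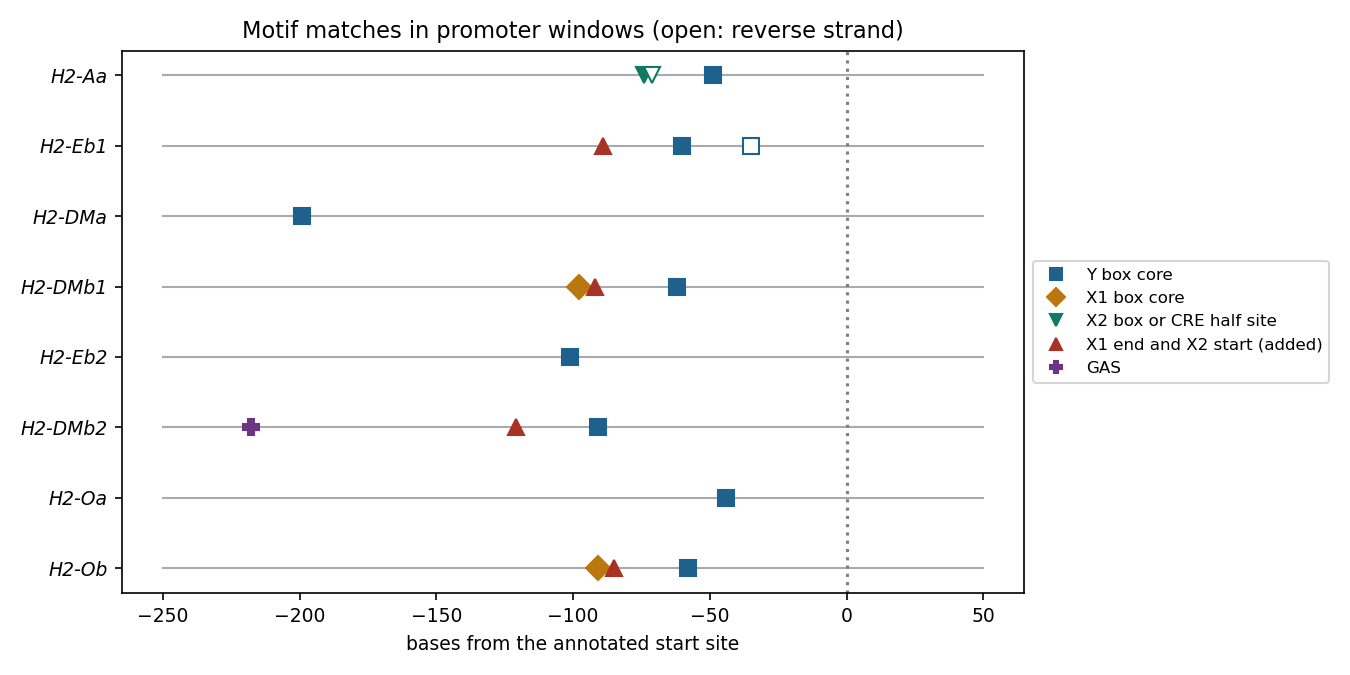
Positions of the motif matches in the promoter windows of 4 members and 4 other class II genes, in bases from the RefSeq start site. On the strand of the gene the Y box core lies between -44 and -101 in 7 of the genes and at -199 in H2-DMa.

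By group means, class II transcripts were found in microglia far above their level in astrocytes. In single libraries the J-A microglia overlapped the FPI astrocytes for H2-Aa, H2-Ab1, H2-Eb1 and Ciita. Per kilobase of exon, the mean level in sham microglia was 37.5 ± 25.2 CPM (counts scaled to a common library total) for Cd74 (SD, n = 5). It was followed by 21.1 ± 1.51 for H2-DMb1, 12.7 ± 1.83 for H2-DMa, 11.3 ± 8.10 for H2-Ab1, 9.77 ± 9.64 for H2-Eb1, 4.90 ± 5.17 for H2-Aa and 0.0708 ± 0.103 for Ciita. In FPI microglia the order was the same, from 53.1 ± 29.8 CPM per kilobase for Cd74 to 0.260 ± 0.274 for Ciita (SD, n = 5). Neighbours in this order differed by more than the larger of their SDs only between H2-DMb1 and H2-DMa in both conditions and between H2-Aa and Ciita after FPI. In astrocytes Cd74 again had the highest mean, 0.365 ± 0.255 CPM per kilobase in sham and 2.44 ± 2.74 after FPI (SD, n = 5), and no neighbours in the order differed beyond their spread.

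The microglia libraries split by name series in the antigen-binding chains and the invariant chain, in both conditions. Values from here on are CPM on the TMM scale, not divided by length. For the alpha chain gene H2-Aa, sham microglia libraries 1 to 5 had 21.2, 15.3, 50.7, 2.68 and 3.11 CPM, and FPI microglia libraries 1 to 5 had 15.7, 34.0, 16.1, 2.97 and 5.13 CPM. Its partner H2-Ab1 had 38.9, 31.8, 57.2, 9.39 and 7.97 CPM in sham and 28.7, 65.9, 30.7, 16.9 and 6.21 CPM after FPI. In both genes libraries 4 and 5 of each condition were below every one of libraries 1 to 3, while sham and FPI overlapped.

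H2-Eb1 had 26.1, 20.2, 45.9, 2.68 and 0 CPM in sham and 19.6, 30.8, 14.2, 3.29 and 4.18 CPM after FPI. Cd74 had 75.8, 68.8, 124, 20.5 and 25.3 CPM in sham and 124, 158, 73.6, 43.2 and 47.2 CPM after FPI. Again the 6 M libraries were all higher than the 4 J-A libraries. Within the J-A series both FPI libraries were above both sham libraries for Cd74.

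The peptide editors did not share that split. H2-DMa had 50.4, 43.0, 41.9, 34.8 and 49.2 CPM in sham microglia and 40.3, 39.2, 37.8, 43.7 and 62.2 CPM after FPI. H2-DMb1 had 34.0, 34.2, 34.8, 34.6 and 40.0 CPM in sham and 41.5, 31.8, 38.4, 42.6 and 42.6 CPM after FPI. Both conditions and both name series overlapped, and over all 10 microglia libraries the highest value was 1.79 times the lowest for H2-DMa and 1.34 times for H2-DMb1, against 18.9 times for H2-Aa, 10.6 times for H2-Ab1 and 7.71 times for Cd74.

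Ciita was near the limit of detection. Its counts were 0, 17, 19, 0 and 0 in sham microglia and 55, 20, 22, 4 and 0 after FPI. Sham library 1 had no count although its class II chains were high, and FPI library 1 had the most. Of the J-A libraries, 3 of 4 had no count and the other had 4.

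**Figure D2:**
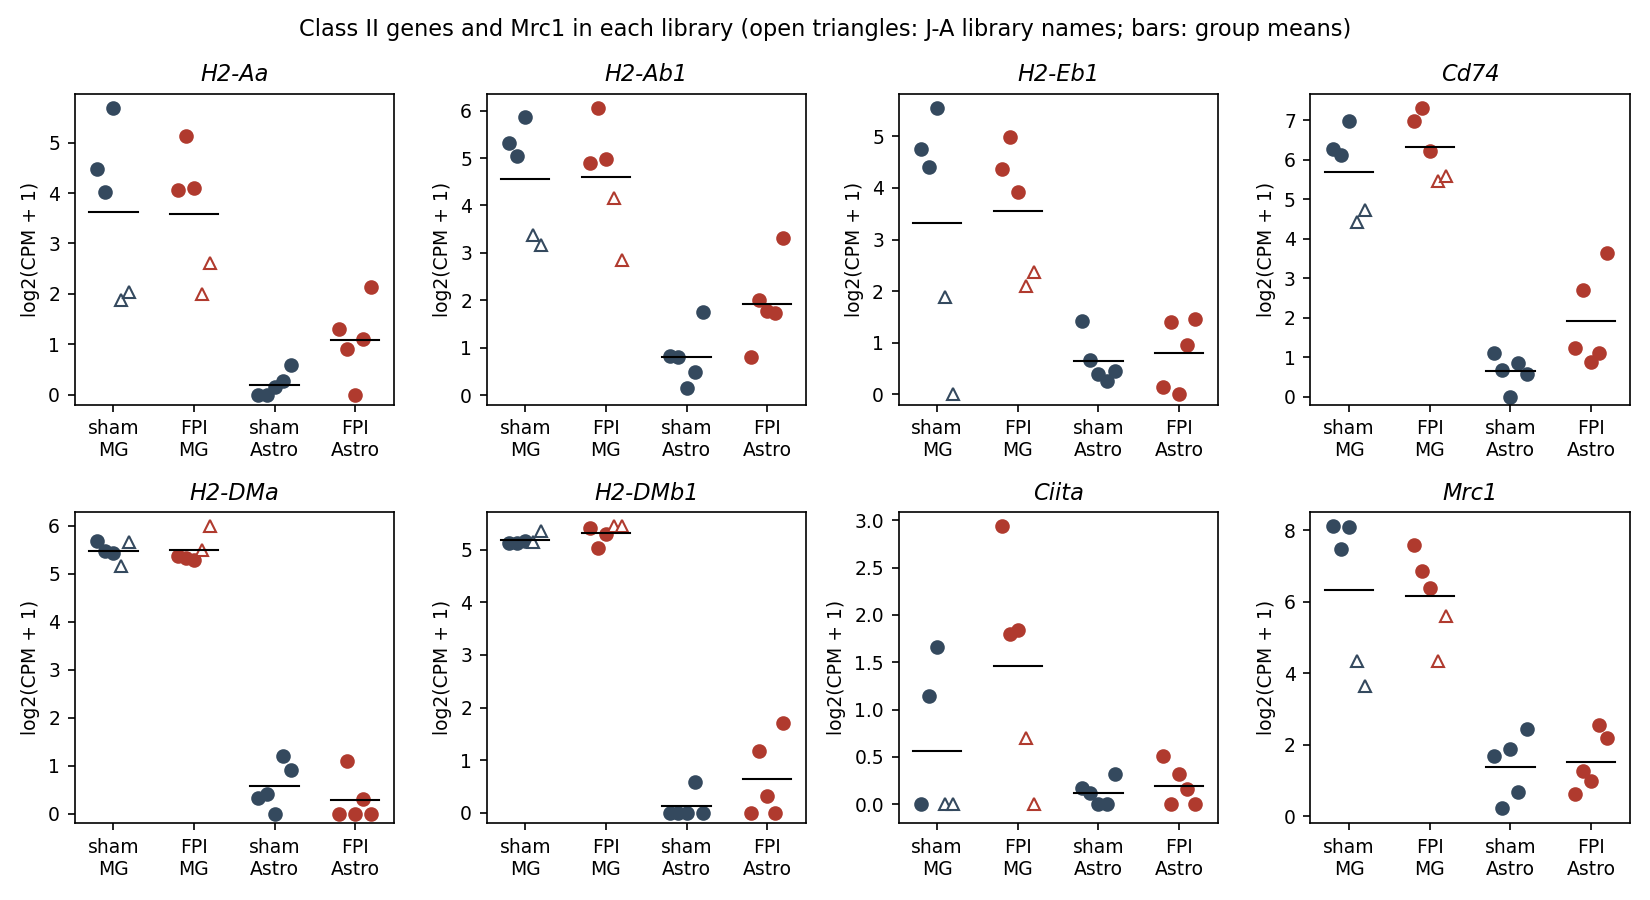
CPM of the 7 members in every library of the 4 groups, with the group means. H2-Aa reaches 50.7 CPM in sham microglia library 3 and 2.68 CPM in sham microglia library 4, while H2-DMb1 stays between 31.8 and 42.6 CPM in microglia.

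The first comparison asked which genes differed between FPI and sham microglia on day 7. In edgeR, 285 of 12143 tested genes were called at adjusted p below 0.1 and an absolute log2 fold change above 0.6 (2.35%; 259 higher and 26 lower), and 0 of the 7 members were among them. At an unadjusted p below 0.05 the count of members was also 0, and DESeq2 called 0. These p-values measure the spread between libraries of different animals. In bulk samples fewer cells of a kind and less RNA per cell cannot be told apart.

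The log2 fold change of H2-Aa was -0.33 (SE 0.63), from 18.6 ± 19.6 CPM in sham to 14.8 ± 12.3 CPM after FPI (SD, n = 5). H2-Ab1 gave 0.02 (SE 0.49), H2-Eb1 -0.40 (SE 0.72), H2-DMa 0.03 (SE 0.17) and H2-DMb1 0.15 (SE 0.15). The signs of the first 4 of these were not stable, since leaving out sham library 3 moved H2-Aa to 0.47 and H2-Eb1 to 0.22, leaving out FPI library 2 moved H2-Ab1 to -0.50, leaving out sham library 4 or 5 moved it to -0.20 or -0.21, and leaving out FPI library 5 or sham library 4 moved H2-DMa to -0.13 or -0.05. The standard errors of the 2 peptide editors were the smallest of the 7.

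Cd74 and Ciita had the largest differences of the members. Cd74 went from 62.9 ± 42.3 CPM in sham to 89.2 ± 50.1 CPM after FPI (SD, n = 5). Its log2 fold change was 0.50 (SE 0.40, edgeR adjusted p = 0.747), and from 0.19 to 0.90 when 1 library was left out. For Ciita it was 1.79 (SE 1.11, edgeR adjusted p = 0.628), and from 1.00 (without FPI library 1) to 2.76. With a term for the name series, chosen before the values were seen, the spread of Cd74 narrowed to give 0.62 (SE 0.20, edgeR adjusted p = 0.137), still above the threshold. Cd74 gave 0.39 (SE 0.25, edgeR adjusted p = 0.563) among the M libraries alone and 1.00 (SE 0.26, edgeR adjusted p = 0.151) among the J-A libraries alone, the latter from 2 libraries a group. A test of whether FPI acted differently in the 2 name series, added after the values were seen, called 0 members in edgeR, with 1 (H2-Eb1) at an unadjusted p below 0.05, and was not run in DESeq2.

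Class I genes rose in the same libraries. Of the 7 genes of the class I list, 5 were called higher after FPI and 2 were not, with a list median of 0.95 against -0.01 for all tested genes, while the median of the 7 class II members was 0.03. H2-K1, a class I heavy chain, had 261, 199, 323, 283 and 349 CPM in sham microglia and 631, 903, 559, 611 and 839 CPM after FPI, with every FPI library above every sham library. Its log2 fold change was 1.33 (SE 0.16, edgeR adjusted p = 8.44e-05), and the other heavy chain H2-D1 rose by 1.51 (SE 0.16).

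Nlrc5, the class I counterpart of Ciita, had 31.3, 17.0, 16.3, 32.7 and 30.3 CPM in sham and 79.4, 89.5, 84.0, 46.0 and 49.9 CPM after FPI, again without overlap. It rose by 1.46 on the log2 scale (SE 0.23, edgeR adjusted p = 0.00119), though within the J-A libraries it gave 0.61 with an adjusted p of 0.330 in edgeR, and with all libraries in 1 fit 1.45 with an adjusted p of 0.126. The light chain B2m rose by 0.90 and the peptide transporter subunit Tap1 by 0.95, calls lost among the M libraries (0.70, edgeR adjusted p = 0.108) and with all libraries in 1 fit (0.88, edgeR adjusted p = 0.112) for B2m, and among the J-A libraries for Tap1 (0.78, edgeR adjusted p = 0.132). Tap2 gave -0.04 and the chaperone Tapbp 0.16, neither called. The difference between the class I and class II responses was not tested.

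**Figure D3:**
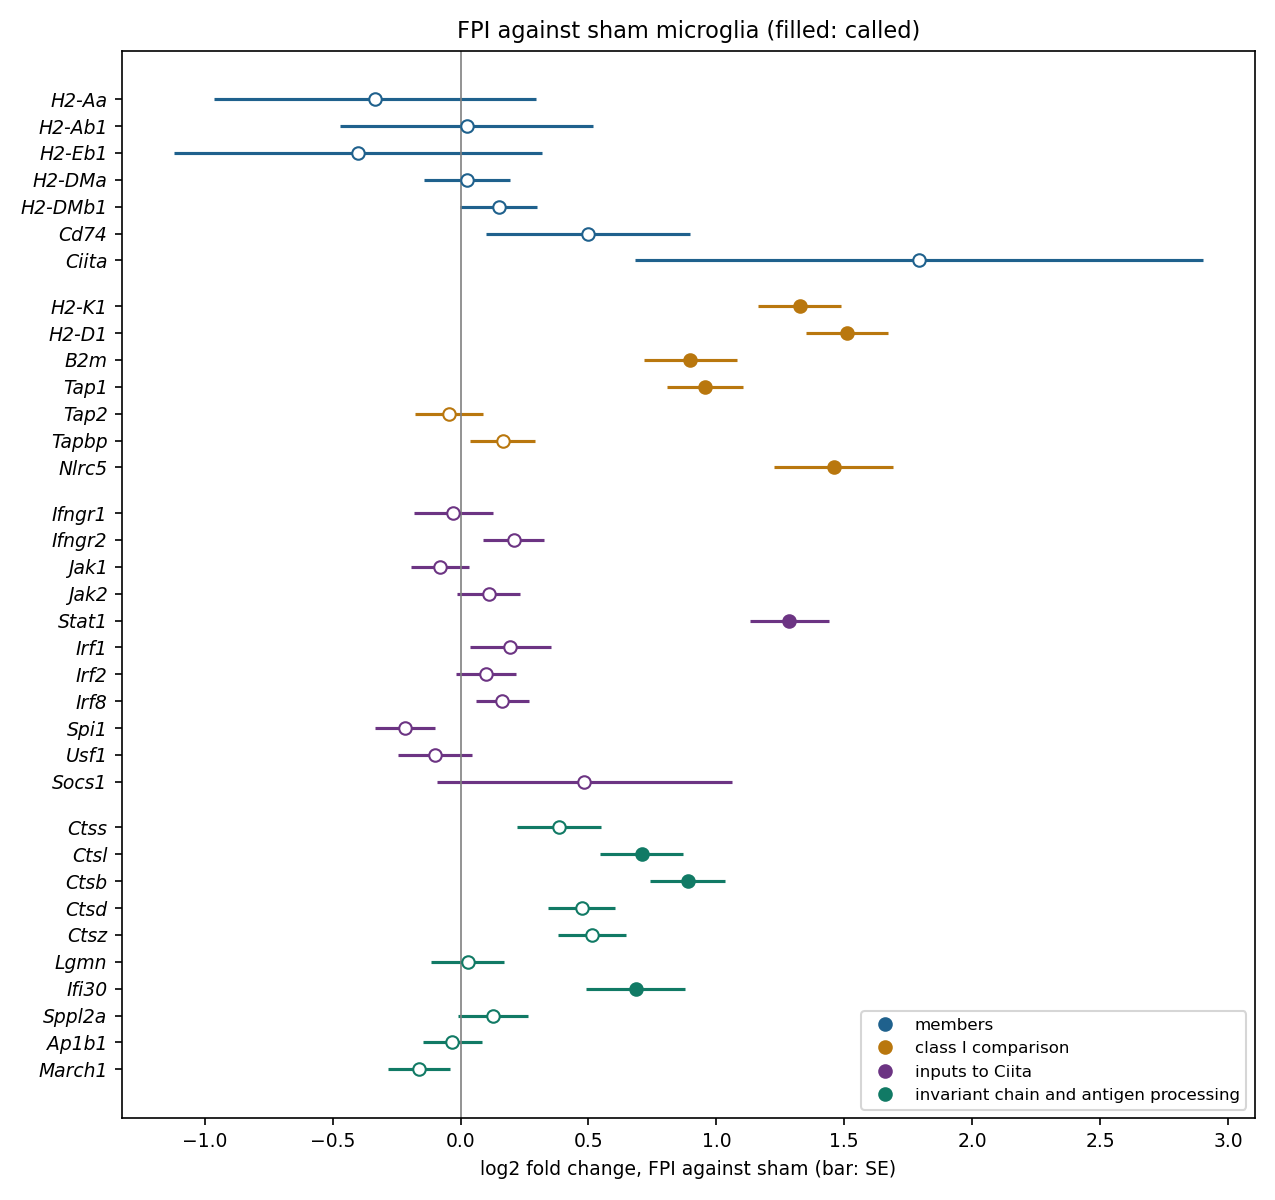
Log2 fold change of FPI against sham microglia with its standard error for the members and the class I list. H2-D1 stands at 1.51 and H2-K1 at 1.33, while the class II members apart from Cd74 (0.50) and Ciita (1.79) lie between -0.40 and 0.15.

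Among the inputs to Ciita, the receptor chains Ifngr1 and Ifngr2 and the factors Irf1, Irf8 and Spi1 were not called after FPI, and Ifng itself had 0 counts in every library of both cell types. Of the 7 factors that bind class II promoters (Rfx5, Rfxap, Rfxank, Nfya, Nfyb, Nfyc and Creb1), 0 were called in edgeR and in DESeq2, with 1 at an unadjusted p below 0.05 in each and a list median of -0.18.

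Of the 10 genes for invariant chain degradation and antigen processing, 3 were called higher. The cathepsin Ctsb rose by 0.89 (SE 0.15, edgeR adjusted p = 0.00162) and the cathepsin Ctsl by 0.71 (SE 0.16, edgeR adjusted p = 0.0247). The call on Ctsl was lost without sham library 2 (0.65, edgeR adjusted p = 0.101) or FPI library 5 (0.58, below the fold threshold), with all libraries in 1 fit (0.69, edgeR adjusted p = 0.154), among the M libraries (0.63, edgeR adjusted p = 0.101) and among the J-A libraries (0.80, edgeR adjusted p = 0.109). Ifi30, a lysosomal thiol reductase, rose by 0.68 (SE 0.19, edgeR adjusted p = 0.0779), a call lost when any of 7 of the 10 libraries was left out (all but sham library 1 and FPI libraries 3 and 4), with values down to 0.57, and also with all libraries in 1 fit, with the replicate block and within each name series (0.65 to 0.69). Ctsd at 0.47 and Ctsz at 0.51 passed the adjusted p but not the fold threshold.

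Cd44, a signalling partner of Cd74 at the cell surface, had 0.647, 2.41, 3.20, 3.46 and 2.33 CPM in sham microglia and 23.0, 19.5, 9.65, 5.63 and 5.40 CPM after FPI. All FPI libraries were above all sham libraries, with the J-A libraries the lowest of the FPI group. The log2 fold change was 2.38 (SE 0.48, edgeR adjusted p = 0.00959), and within the J-A libraries it was 0.92 with an adjusted p of 0.704 in edgeR. Of the 6 tested genes for costimulation and T cell partners, 0 were called in edgeR and 1 in DESeq2, with 2 at an unadjusted p below 0.05 in each. Lag3, a receptor for class II molecules, was the most abundant of that list in every microglia library (196 to 461 CPM). Of the other class II chains 0 of 3 tested were called, and 0 had an unadjusted p below 0.05, in edgeR and in DESeq2. Their CPM over the microglia libraries ran from 1.60 to 10.9 for H2-DMb2, from 6.36 to 16.4 for H2-Oa and from 16.2 to 26.4 for H2-Ob. H2-Eb2 and the pseudogene H2-Ea-ps were at 0 in every library.

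The contrast of the name series was made after the values had been seen and is given for that reason as a description of these libraries. In an edgeR fit with terms for FPI and name series, 60 of 12143 genes were higher in the M libraries (0.494%) and 14 were lower. Of the 7 members, 4 were among the higher ones. H2-Aa was higher by 2.85 (SE 0.39), H2-Ab1 by 2.07 (SE 0.30), H2-Eb1 by 3.31 (SE 0.49) and Cd74 by 1.67 (SE 0.22) on the log2 scale, with the 6 M libraries above the 4 J-A libraries in each. H2-DMa gave -0.17 (SE 0.17) and H2-DMb1 -0.16 (SE 0.15). Ciita gave 4.13 (SE 1.21) with an adjusted p of 0.237 in edgeR, and it was called in DESeq2 (adjusted p of 0.034) and in edgeR when genes needed only 1 count (4.19, adjusted p of 0.0813), so that 5 of the 7 were called in each. The 4 calls were kept when each library was left out in turn.

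Markers of border macrophages moved with the same split. Mrc1, the mannose receptor, had 277, 176, 275, 19.4 and 11.5 CPM in sham microglia and 194, 114, 82.5, 19.2 and 48.0 CPM after FPI. Cd163, the haemoglobin scavenger receptor, had 59.0, 36.9, 56.7, 0.335 and 2.72 CPM in sham and 15.8, 23.4, 18.7, 1.25 and 1.89 CPM after FPI. In both genes every M library was above every J-A library.

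Immediate-early and stress response genes moved with the split as well. Fos (1.60), Dusp1 (1.46), Atf3 (1.46), Fosb (1.66), Egr1 (1.23), Zfp36 (1.15) and Klf4 (1.34) were called higher in the M libraries and ranked above every member by p, with Fos first of all genes. Jun (0.64), Ier2 (0.82) and Nr4a1 (1.11) were called too. These genes were picked from the called ones and not from a list fixed beforehand, and their part in the class II difference was not tested.

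Of the 10 macrophage markers tested, 7 were called higher in the M libraries (Mrc1 2.85, Cd163 4.41, Lyve1 2.77, F13a1 3.79, Pf4 5.18, Cbr2 3.45 and Clec10a 3.81), with a list median of 3.15 against -0.01 for all tested genes. The call on Lyve1 was lost without any 1 of 7 libraries (sham libraries 1 to 5 and FPI libraries 2 and 4; down to 2.34), and the call on Cbr2 without sham library 3, 4 or 5 (down to 2.99). Ms4a7 gave 2.75, not called in edgeR but called in DESeq2 and in edgeR under a filter of 1 count (2.77, edgeR adjusted p = 0.00885), and Folr2 (0.69) and Stab1 (0.10) were not called. Counted by overlap alone, all M libraries were above all J-A libraries for 4 of the 7 members, for 9 of the 12 macrophage markers, and for 0 genes of the 17 other lists, microglia, monocyte, dendritic cell, B cell, T cell and neutrophil markers included. Of all 12143 tested genes, 139 (1.14%) had every M library above every J-A library and 64 (0.527%) the reverse. By the tests the other lists were not all unchanged. The neutrophil marker S100a9 gave 3.11 (unadjusted p = 0.00259) and Cd4 gave 3.80 (unadjusted p = 0.00136), neither called in edgeR, and DESeq2 called 1 of 2 tested neutrophil markers and 1 of 6 tested genes for costimulation and T cell partners.

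The summed level of the 12 macrophage markers was 1417, 1247, 1353, 867 and 886 CPM in sham microglia and 1220, 953, 1050, 829 and 841 CPM after FPI. Stab1 was the most abundant gene of the list in every microglia library and was nearly even (737 to 939 CPM). Without Stab1 the other 11 summed to 506, 308, 482, 26.7 and 21.0 CPM in sham and 312, 216, 153, 29.3 and 75.3 CPM after FPI. No macrophage marker was at 0 in all microglia libraries. Whether the macrophage transcripts account for the class II difference between the name series was not tested.

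**Figure D4:**
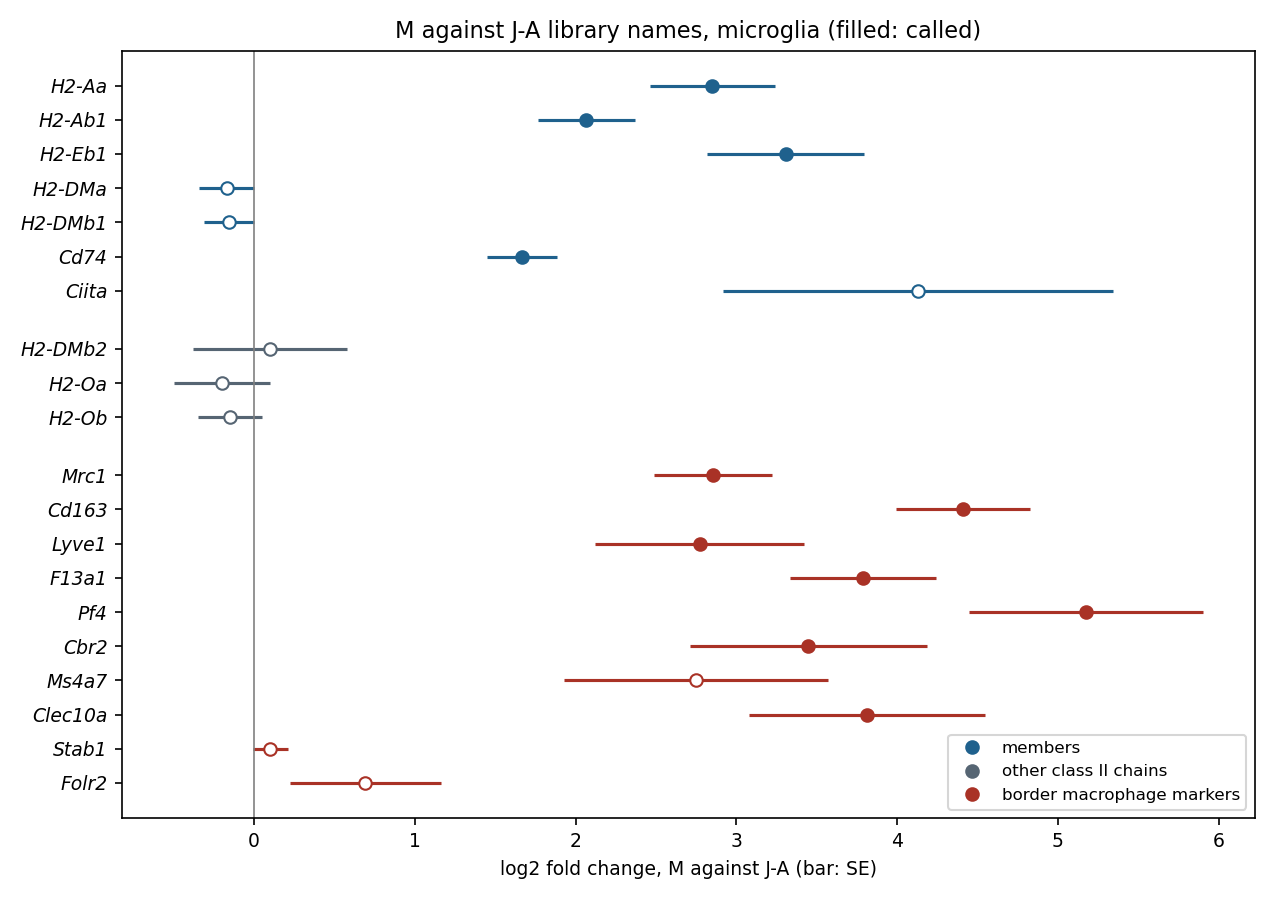
Log2 fold change of the 6 M against the 4 J-A microglia libraries with its standard error, for the members, the other class II chains and the macrophage markers. Mrc1 and H2-Aa both stand at 2.85, while H2-DMa stands at -0.17, H2-DMb1 at -0.16 and the macrophage marker Stab1 at 0.10.

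Over the 10 microglia libraries H2-Aa kept a narrower ratio to Mrc1 than either gene's own range. Mrc1 spanned 24.2-fold and H2-Aa 18.9-fold, while the ratio of H2-Aa to Mrc1 ran from 0.0765 to 0.297, a 3.88-fold span. The ratio of Cd74 to Mrc1 ran from 0.273 to 2.24 (8.21-fold), slightly wider than the span of Cd74 itself, and that of H2-DMa to Mrc1 from 0.152 to 4.29 (28.2-fold). These ratios were chosen after the values were seen, and those of H2-Ab1 and H2-Eb1 were not computed. H2-Aa, Cd74 and Mrc1 all split by name series, so their ratios carry that split and are no separate result. Because the libraries fell into 2 clusters, no correlation over them is given for these pairs.

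**Figure D5:**
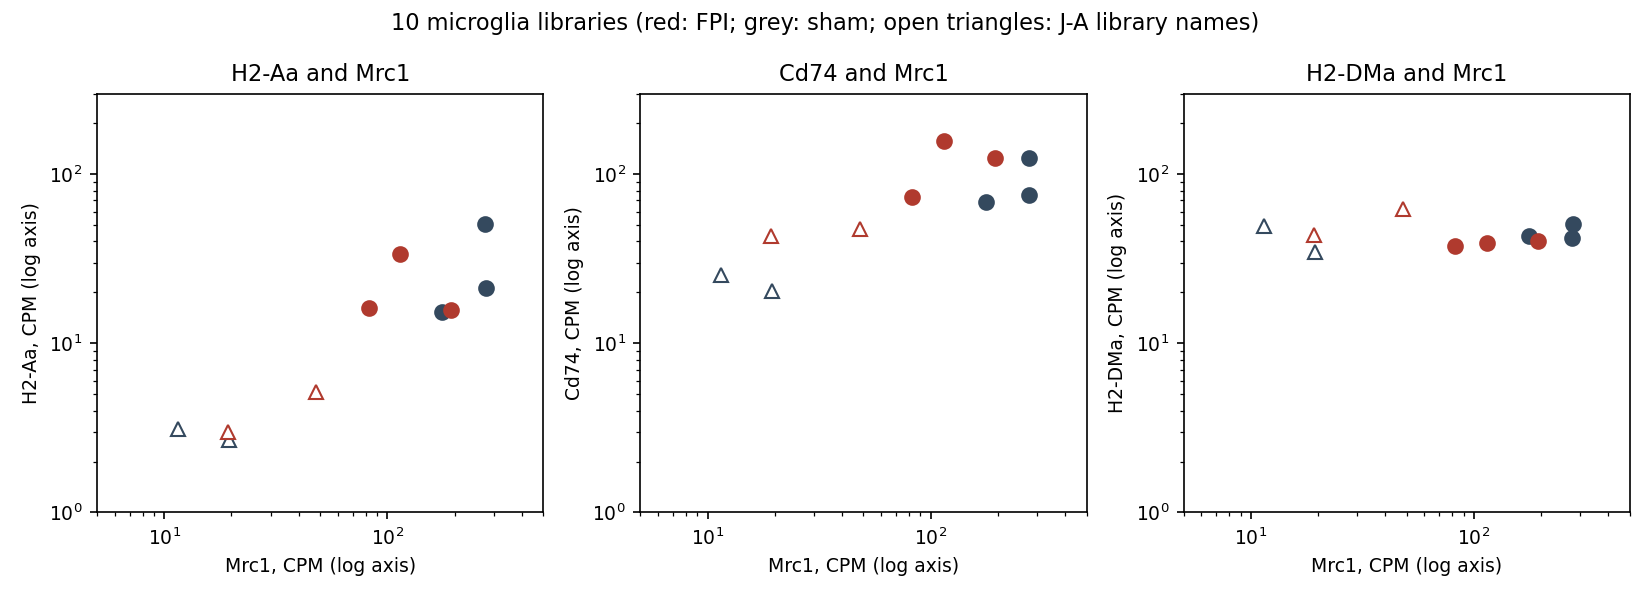
CPM of H2-Aa, Cd74 and H2-DMa against CPM of Mrc1 in the 10 microglia libraries, both axes on a log scale. H2-Aa and Cd74 are low where Mrc1 is low (11.5 to 48.0 CPM), and H2-DMa stays between 34.8 and 62.2 CPM across the range.

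FPI did not move Mrc1 past the threshold over all microglia libraries (log2 fold change -0.73, SE 0.63, edgeR adjusted p = 0.773). Among the M libraries alone Mrc1 was lower after FPI by the call rule (log2 fold change -0.91, edgeR adjusted p = 0.0684), as were Cd163 (-1.41), Lyve1 (-2.06) and F13a1 (-1.14), while H2-Aa gave -0.41, H2-Ab1 -0.04, H2-Eb1 -0.52 and Cd74 0.39 there, none called. Among the J-A libraries Mrc1 gave 1.11 (edgeR adjusted p = 0.282). The difference between Mrc1 and the class II members in their FPI effect was not tested. Over all microglia libraries 1 of 10 tested macrophage markers was called after FPI, Folr2 with 1.60 (edgeR adjusted p = 0.0918), a call lost when any of 8 of the 10 libraries was left out (all but FPI libraries 3 and 4), with all libraries in 1 fit, with the replicate block and within each name series. The list median was -0.72 against -0.01 for all tested genes, and 8 of the 10 had negative values, with Lyve1 (-1.90) at an unadjusted p of 0.0206.

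The sort was checked against its markers. The 11 microglia markers summed to between 19299 and 32158 CPM in the microglia libraries, and 0 of them were called between FPI and sham in edgeR and in DESeq2, with 5 at an unadjusted p below 0.05 in each. In edgeR all 5 were lower after FPI (Tmem119 -0.47, P2ry12 -0.50, Cx3cr1 -0.36, Siglech -0.27 and Sall1 -0.26), and the list median was -0.13 against -0.01 for all tested genes. The 10 astrocyte markers summed to between 251 and 606 CPM in microglia, led by Slc1a3 or Slc1a2, and 1 of them, Gfap, was called higher after FPI (2.78). All 10 had positive values, 4 with an unadjusted p below 0.05 in edgeR and in DESeq2, and the list median was 0.61 against -0.01 for all tested genes. Among the J-A libraries alone Gfap gave 0.49 (edgeR adjusted p = 0.685), and its FPI effect differed between the name series (3.93, edgeR adjusted p = 0.0399). The precursor marker Cspg4 was also higher (2.29), a call lost without sham library 2 (edgeR adjusted p = 0.112) or FPI library 1 (edgeR adjusted p = 0.153), among the J-A libraries (1.41, edgeR adjusted p = 0.644) and with all libraries in 1 fit (2.26, edgeR adjusted p = 0.199).

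Other cells that carry class II were looked for by their own markers. Of the B cell markers, Cd79a, Ms4a1 and Pax5 were at 0 in every microglia library, while Ighm led the list, and Bank1 fell by 1.02 after FPI (edgeR adjusted p = 0.00607). Bank1 was not called among the J-A libraries (-0.38, edgeR adjusted p = 0.554) or with all libraries in 1 fit (-1.03, edgeR adjusted p = 0.586). Of the 8 T and NK cell markers, Cd3e, Cd3g, Trac and Nkg7 were at 0, and 7 of the 8 had at most 3 counts in any microglia library. Among monocyte markers Ly6c2 was at 0, Fn1 led in every microglia library, and 1 of 4 tested was called (Fn1, 1.84, edgeR adjusted p = 0.00959), though among the J-A libraries Fn1 gave 1.00 (edgeR adjusted p = 0.239) and with all libraries in 1 fit 1.82 (edgeR adjusted p = 0.172).

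The 11 dendritic cell markers summed to between 25.1 and 51.2 CPM in microglia, led by Irf4, Batf3, Itgae or Zbtb46, with 0 of 4 tested called. Of the 6 neutrophil markers Ly6g was at 0 and Csf3r made up nearly all of the sum, with 0 of 2 tested called. The neuron list (0 of 1 tested) and the endothelial and mural list (0 of 7 tested) gave no call either. For these 4 lists edgeR and DESeq2 gave the same counts, and 1 endothelial or mural gene and none of the other lists had an unadjusted p below 0.05.

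By the measure fixed for likeness, the Pearson r of log2 CPM with the mean standardised level of the 7 members over the 10 microglia libraries, the most alike genes were Iqgap2 (0.95), Cybb (0.92), Ms4a7 (0.91), Plxnc1 (0.91) and Antxr2 (0.90). With the mean of each condition subtracted they were Dab2 (0.96), Iqgap2 (0.95), Cybb (0.94), Cd163 (0.94) and Wwp1 (0.93). These values are descriptions, and all of them carry the split between the name series.

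The comparison of the cell types asked where class II transcripts lie. In a joint edgeR fit of all 20 libraries, 4079 of 15077 tested genes were higher in microglia (27.1%), and all 7 members were among them. The log2 fold change was 6.99 (SE 0.50) for H2-DMb1, 6.74 (SE 0.42) for H2-DMa, 5.56 (SE 0.53) for Cd74, 5.11 (SE 0.71) for H2-Aa, 4.46 (SE 0.75) for H2-Eb1, 4.07 (SE 0.54) for H2-Ab1 and 3.28 (SE 0.95, edgeR adjusted p = 0.00390) for Ciita. Library by library, only H2-DMa, H2-DMb1 and Cd74 were higher in every microglia library than in every astrocyte library. For H2-Aa the J-A microglia had 2.68 to 5.13 CPM and FPI astrocyte library 5 had 3.37. The lowest J-A value was 6.21 CPM for H2-Ab1 and 0 for H2-Eb1, against 8.99 and 1.77 in that astrocyte library. Ciita overlapped too. The tested genes of some other lists were called higher throughout, with 3 of 3 other class II chains, 7 of 7 class I genes and 10 of 10 macrophage markers. When the microglia libraries of the 3 animals that gave both cell types were left out, 6 members were tested and 6 were called.

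In astrocytes the members had few counts. H2-Ab1 had 0.779, 0.755, 0.104, 0.402 and 2.39 CPM in sham astrocytes and 0.737, 3.02, 2.44, 2.33 and 8.99 CPM after FPI. Cd74 had 9, 7, 0, 8 and 4 counts in sham and 13, 44, 7, 10 and 72 counts after FPI. For both, FPI libraries 2 and 5 were the highest and the groups overlapped.

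H2-Aa had 0, 0, 1, 2 and 4 counts in sham astrocytes and 14, 7, 0, 10 and 21 after FPI, so that 4 of 5 FPI libraries exceeded every sham library and the other had none. H2-Eb1 ranged from 2 to 13 counts in sham and from 0 to 13 after FPI. The highest counts were 13 for H2-DMa, 14 for H2-DMb1 and 4 for Ciita, and each of these was at 0 in several astrocyte libraries.

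In edgeR 1 of 13741 tested genes was called between FPI and sham astrocytes (0.00728%), and of the members H2-Ab1 alone passed the low-count filter. It was not called (log2 fold change 1.98, SE 0.79, edgeR adjusted p = 0.999), so that 0 members were called. Its unadjusted p was below 0.05 in edgeR, 1 of 1 tested, and DESeq2 called 0. Without FPI library 5 the log2 fold change of H2-Ab1 was 1.26.

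The 6 members under the filter were compared by an exact two-sided permutation test of mean log2(CPM + 1), a scale that understates changes of low genes, with a smallest possible p of 0.00794. Cd74 was higher after FPI by 1.28 (exact p = 0.0238) and H2-Aa by 0.89 (exact p = 0.0476). These p-values take FPI libraries 2 and 5, whose names share an animal number, as independent. With the pair averaged Cd74 gave 0.98 (exact p = 0.0317) and H2-Aa 0.82 (exact p = 0.0873). The differences were 0.15 for H2-Eb1 (exact p = 0.675), -0.29 for H2-DMa (exact p = 0.317), 0.52 for H2-DMb1 (exact p = 0.286) and 0.07 for Ciita (exact p = 0.571). No member passed 0.1 after adjustment over the 6. Without FPI library 3 that count was 2, without FPI library 4 it was 1, and without FPI library 5 Cd74 gave 0.84 and H2-Aa 0.63.

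Microglia transcripts were measured in the same astrocyte libraries. The 11 microglia markers summed to 178, 139, 104, 123 and 110 CPM in sham astrocytes and 271, 228, 142, 128 and 233 CPM after FPI, with FPI libraries 3 and 4 inside the sham range, and none of the 11 was at 0 in all astrocyte libraries. Of the 8 tested microglia markers 0 were called in edgeR, with 5 at an unadjusted p below 0.05, and DESeq2 called 5, with 6 at an unadjusted p below 0.05. The list median in edgeR was 3.15 against -0.01 for all tested genes.

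Ctss, the cathepsin that degrades Cd74 and one of the most abundant genes of the processing list in microglia (4000 to 8462 CPM), was the 1 gene called in astrocytes. It had 0.520, 0.420, 0.622, 1.81 and 2.39 CPM in sham and 37.3, 29.7, 6.46, 17.6 and 40.6 CPM after FPI, without overlap (log2 fold change 4.52, SE 0.60, edgeR adjusted p = 0.0798). That call was lost when any of 7 libraries was left out (sham libraries 1 to 4 and FPI libraries 2, 4 and 5), with values of at least 4.28, and with FPI libraries 2 and 5 summed (4.36, edgeR adjusted p = 0.270). The macrophage markers summed to 7.66, 4.70, 4.77, 3.32 and 12.3 CPM in sham astrocytes and 6.74, 15.9, 4.76, 10.3 and 26.2 CPM after FPI, led by Stab1 or Mrc1, with Pf4 and Cd209f at 0 throughout. The part of microglia or macrophage RNA in the astrocyte values of the members was not tested.

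Whether FPI acted differently in the cell types was tested by the interaction. In edgeR 30 of 15077 genes were called at adjusted p below 0.1 (0.199%) and 0 of the 7 members, 3 of which had an unadjusted p below 0.05 (H2-Aa -3.32, H2-DMb1 -2.37 and Cd74 -2.16 in microglia relative to astrocytes). DESeq2 called 0 members, with 4 at an unadjusted p below 0.05. The microglia markers Cx3cr1 (-3.66), C1qa (-4.59) and Itgam (-3.58), Ctss (-4.12) and Spi1 (-4.55) were called with the same sign.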

How the data were processed

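The authors aligned reads from a stranded total RNA kit to mm10 (GRCm38.p6) with HISAT2 2.1.0 and deposited raw counts per gene, which the submitters' processing notes credit to featureCounts. The strand setting was not given in the sources used here. The sample tables and the combined table held the same values in all 20 libraries, and 37607 of the 39017 identifiers were matched to GENCODE M21. Total counts were 5623349 to 13110857 per library, so that at the lowest depths a member with few counts gives an imprecise value.

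Counts were tested with edgeR 4.0.16 (R 4.3.3) after its filter on low counts (filterByExpr) and TMM scaling, by quasi-likelihood tests with Benjamini-Hochberg adjustment over all tested genes. A gene was called at adjusted p below 0.1 and an absolute log2 fold change above 0.6, the interaction at adjusted p below 0.1. FPI and sham were compared within each cell type, and the cell types and the interaction in a joint fit. Members under the filter had exact permutation tests (scipy 1.17.1). The fits were tested on simulated data.

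The members and lists were chosen with earlier results of these data known. All members were named, and from the lists of pathway genes and cell type markers called genes, abundant genes and those the sorted cells should lack. Some genes of these lists, called ones included, are not reported here. Likeness to the members was ranked by Pearson r.

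Alternatives were DESeq2 1.42.0, other scaling and filters, a block on replicate number, all libraries in 1 fit, leaving out each library, leaving out libraries of animals with both cell types, joining FPI astrocyte libraries 2 and 5, another pseudocount and, chosen after seeing the data, the name series as a contrast. Promoter windows came from RefSeq (GRCm38.p6).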

Additional observations from a re-analysis of the deposited data

Results flagged for a closer look

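In 6 of the 28 combinations of a member and a group of 5, the highest library stood apart from the others by Dixon's 95% criterion. For normally distributed values chance gives about 1 in 20. That rate does not hold for groups with counts near 0, as in astrocytes, so the 6 cannot be set against it. In FPI astrocytes H2-Ab1 had 8.99 CPM in library 5, with 3.02 CPM the next highest, and H2-DMa had 1.13 CPM in library 2, with 0.233 CPM the next. Among sham astrocytes H2-Eb1 had 1.69 CPM in library 1 (next 0.587 CPM), and H2-DMb1 had 0.502 CPM in library 4, the others being at 0. For the peptide editors in microglia, H2-DMa had 62.2 CPM in FPI library 5 (next 43.7 CPM) and H2-DMb1 had 40.0 CPM in sham library 5 (next 34.8 CPM). The split of H2-Aa, H2-Ab1, H2-Eb1 and Cd74 by name series is not of this kind, since several libraries lie on each side.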

How the results depend on the processing

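The count of called members was 0 for FPI in microglia and in astrocytes and for the interaction under every alternative run, leave-one-out fits included. With at least 10 counts required in every library no member was tested in astrocytes or for the interaction, so that 0 there carries no information. The replicate block also gave 0 in both cell types. Correlations of same-numbered deviations were -0.07 to 0.09 in microglia. In astrocytes they were 0.45, -0.01, 0.24, 0.45 and 0.35, over 0.1 in 4 of 5 pairs, and those of different numbers ran from -0.43 to 0.39. Not every library correlated best with its own number in either cell type. Whether same-numbered astrocyte libraries belong together was not tested further. In the cell type comparison the count was 7 throughout, except 6 of 6 tested without the microglia libraries of animals with both cell types and 0 with at least 10 counts required in every library, where no member was tested. The name series contrast gave 4 members in each leave-one-out fit, 5 in DESeq2 and with at least 1 count, and 3 of 5 tested with at least 10 counts. Signs of small FPI effects in microglia turned, and the cause was not tested: H2-Aa was 0.49 among J-A libraries, H2-Ab1 -0.040 and H2-DMa -0.22 among M libraries, and H2-Eb1 0.091 with the replicate block, 0.0045 with a name series term and 1.40 among J-A libraries. Leaving out single libraries gave -0.90 to 0.47 for H2-Aa, -0.50 to 0.42 for H2-Ab1, -0.88 to 0.22 for H2-Eb1, -0.13 to 0.080 for H2-DMa, and -0.32 to 0.0026 for H2-DMa between name series. For the low members in astrocytes, H2-Eb1 turned to -0.0163 with a pseudocount of 0.1 and to -0.0103 with FPI libraries 2 and 5 averaged. Its leave-one-out range was -0.019 to 0.35 and that of Ciita -0.0048 to 0.12, and the count past 0.1 ran from 0 to 2. Genes called after FPI in microglia were 285, against 121 with all libraries in 1 fit, 99 among J-A and 364 among M libraries, 402 in DESeq2, 380 with at least 1 count, 313 with a name series term, 255 with the block, and from 177 (without sham or FPI library 2) to 423 (without FPI library 3) when 1 library was left out. In astrocytes the 1 called gene compared with 23 in DESeq2, 53 in the joint fit, 11 with the block, 9 with at least 1 count and 0 with at least 10 counts or with FPI libraries 2 and 5 summed. The 30 of the interaction compared with 191 in DESeq2, 69 without the astrocyte and 8 without the microglia libraries of animals with both cell types, 48 without FPI astrocyte library 3, and 1 with at least 10 counts. The 74 of the name series compared with 112 in DESeq2, 135 with at least 1 count and 47 without FPI microglia library 4. Ciita in both cell types and all members in astrocytes had few counts, and whether depth was the reason was not tested.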
